A study of Mus musculus with 721 samples.

Results

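The T-box genes T, Eomes, Tbx3 and Tbx6 were followed in single cells of mouse embryos between embryonic day (E) 3.5 and E6.5. They were taken by symbol, as 4 of the 24483 autosomal gene rows of the count table. All 4 passed the filter on low counts, Tbx6 only through the class of cells where it was highest, as given below. Wild type C57Bl/6Babr embryos gave 721 cells. The E3.5 stage had 99 cells of 9 numbered embryos and of 1 group of 9 cells whose titles give no embryo number. That group may hold more than 1 embryo and is counted as 1 in each n = 10 of E3.5. The E6.5 stage had 250 cells, counted as 13 embryos, and between these stages lay 5 embryos of E4.5 and 9 of E5.5. At E6.5, embryos 1 and 2 without a plate name were counted apart from embryos 1 and 2 of plate P1 and from embryos 1 and 2 titled E6.75. The labels do not say whether any of these are the same animals. In all, 37 embryos are counted here, more than the paper states, so some may be counted more than once and n may be too high. Of the E6.5 cells, 82 came from 2 embryos titled E6.75. E3.5 cells were from the inner cell mass (ICM). The later cells were from the epiblast and the endoderm that surrounds it, and trophoblast cells had been removed by the study. Cells were picked by hand, and their RNA was read over whole transcripts with SMART-seq2, with no treatment or transgene in any group.

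T-box genes encode transcription factors that bind DNA through the domain that gives the family its name, and different members are used one after the other as cells leave pluripotency. Eomes acts in the trophoblast, in the visceral endoderm (VE) and in the epiblast at the onset of gastrulation, where mesoderm and definitive endoderm need it. T (Brachyury) marks the primitive streak and the nascent mesoderm, and Tbx6 acts later, in paraxial mesoderm. Tbx3 belongs to the circuit of naive pluripotency and is also used in extra-embryonic endoderm.

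On GRCm38, the build of the authors' alignment, all 4 genes lie on the plus strand and code for protein. T (ENSMUSG00000062327) spans chromosome 17 from 8434423 to 8442496, Eomes (ENSMUSG00000032446) chromosome 9 from 118478212 to 118486132, Tbx3 (ENSMUSG00000018604) chromosome 5 from 119670669 to 119684724 and Tbx6 (ENSMUSG00000030699) chromosome 7 from 126781483 to 126785560. Their exons cover 2315, 4155, 6624 and 1804 bases in the GENCODE annotation. Exons of Gm33460 overlap Eomes and exons of Tbx3os1 overlap Tbx3 on the opposite strand. Neither has a row of its own among those analysed, and since the library kit does not mark strand their reads cannot be told apart from those of Eomes and Tbx3.

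The 250 bases before the RefSeq start of T, Eomes and Tbx6, the 3 of the 4 genes matched in RefSeq's promoter table, are printed here so that their upstream regions can be set side by side (GRCm38.p6, plus strand). Capitals mark the T-box half-site AGGTGT or the TCF/LEF motif CTTTGA, the latter read by the factors at the end of the Wnt pathway, on either strand.
T, chr17:8434173-8434422: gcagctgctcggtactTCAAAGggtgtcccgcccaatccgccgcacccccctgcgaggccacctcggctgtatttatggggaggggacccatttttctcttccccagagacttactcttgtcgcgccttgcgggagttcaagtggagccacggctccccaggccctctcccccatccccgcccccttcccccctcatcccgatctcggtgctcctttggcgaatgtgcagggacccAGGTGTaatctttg
Eomes, chr9:118477939-118478188: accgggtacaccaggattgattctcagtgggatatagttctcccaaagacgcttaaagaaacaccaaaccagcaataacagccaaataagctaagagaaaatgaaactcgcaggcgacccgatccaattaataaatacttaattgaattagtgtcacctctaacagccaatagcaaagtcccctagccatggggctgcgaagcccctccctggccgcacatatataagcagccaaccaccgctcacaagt
Tbx6, chr7:126781233-126781482: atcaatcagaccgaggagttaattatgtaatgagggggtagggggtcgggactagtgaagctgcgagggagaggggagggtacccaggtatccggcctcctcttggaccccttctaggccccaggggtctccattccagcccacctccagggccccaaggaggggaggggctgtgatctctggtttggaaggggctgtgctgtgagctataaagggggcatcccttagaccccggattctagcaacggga
The T sequence holds 1 T-box half-site, at position -14 relative to the start, and 1 TCF/LEF motif on the minus strand at position -234. Neither motif is in the Eomes or the Tbx6 window, and the Foxh1 motif AATCCACA is in none of the 3. Of all 32851 promoter windows of the same length, 11.8% hold the T-box half-site, 13.8% the TCF/LEF motif and 0.718% the Foxh1 motif on either strand, and the motifs share no overlap in T.

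Total counts per cell ran from 66896 to 3792936, and a median of 6258 to 7183 genes was detected per stage. Clustering, with the genes described here held out, split the E4.5 cells into 23 of epiblast-like and 82 of PrE-like (primitive endoderm) type. Of the 82 PrE-like cells, 60 kept that class under Ward clustering. Their endoderm markers summed to 81.93 to 46320 CPM (median 18840) and their epiblast markers to 622 to 6359 CPM (median 1760), so the class may hold cells with RNA of both lineages. All but 8 of the E5.5 cells were epiblast-like, those 8 being endoderm-like. E6.5 held 180 epiblast-like, 41 endoderm-like, 25 streak-like and 4 unnamed cells. The names rest on mean levels of marker genes, as log2(CPM + 1). Endoderm markers had a mean of 6.65 in the E6.5 endoderm-like cells against 3.37 in the other E6.5 cells. Streak markers had a mean of 6.15 in the streak-like cells against 1.90 in the other E6.5 cells. All 25 endoderm markers were detected in the endoderm-like cells and all 16 streak markers in the streak-like cells. Both full lists were also detected in the E6.5 epiblast-like cells, so detection alone does not part these classes. The streak list had been chosen by the study on these cells. Globin genes led the E6.5 endoderm-like cluster and had counts in 5 of its 41 cells. Of the 25 streak-like cells, 24 came from embryo 2 without a plate name and 1 from embryo 1 without a plate name, so that class has 1 embryo with enough cells. The E6.5 epiblast-like cells fell into clusters that followed the plates, 81 of them having no plate name and 99 being from plates P1 to P3. Of all cells, 588 were labelled as single when picked, and most others as doublets.

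Levels are given as CPM, the gene's share of the summed counts scaled as edgeR does. For each embryo, the counts of at least 3 cells of a class were added, which gave 48 sums. Sums were compared with edgeR's quasi-likelihood test across 16994 genes, in 1 fit of all 7 classes. Calls needed a log2 fold change beyond 1 in either direction (2 between the E4.5 lineages) and a Benjamini-Hochberg adjusted p no higher than 0.05. All fold changes below are log2 values of the first class minus the second, with the standard error (SE) implied by the test. Shares of cells are those with at least 1 count after each cell was thinned to 300000 counts, unless said otherwise.

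**Figure D1:**
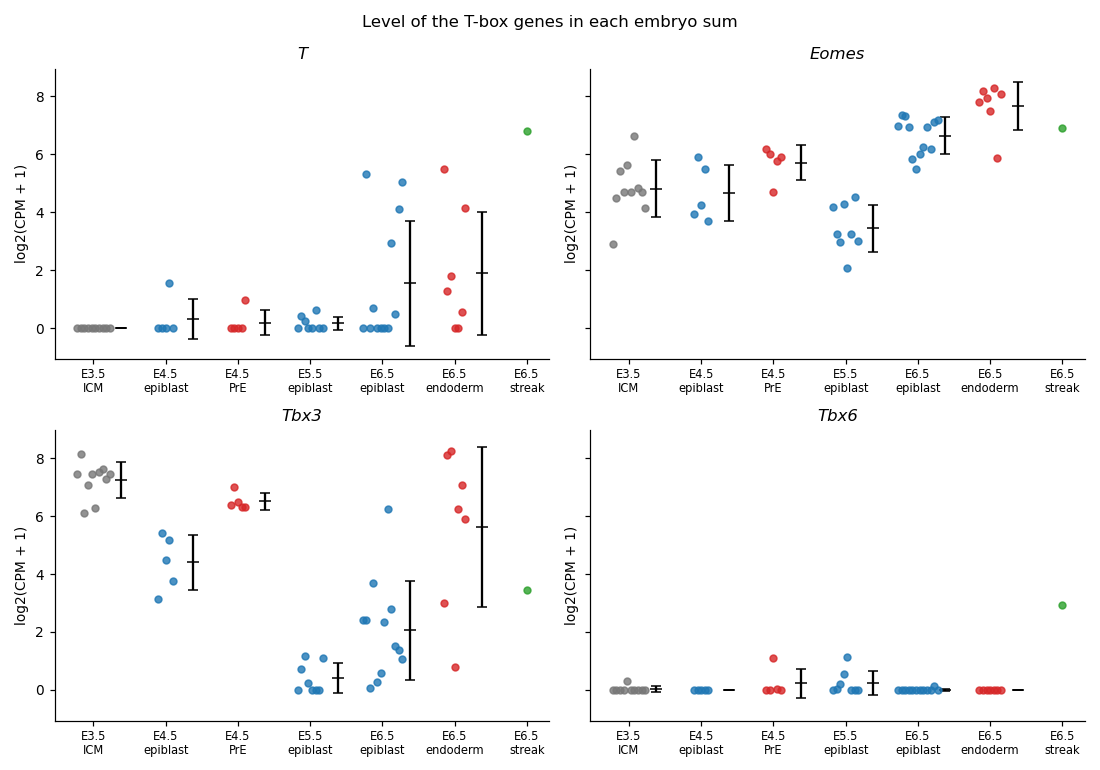
Level of each T-box gene as log2(CPM + 1) in every embryo sum (points) of the 7 classes, with the mean and SD over embryos beside each group of more than 1. Tbx3 was high at E3.5 and lowest in the E5.5 epiblast-like sums, Eomes was highest in the E6.5 endoderm-like sums, and T and Tbx6 were highest in the single streak-like sum.

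Eomes was detected in every class, with its lowest mean level in the E5.5 epiblast-like sums and its highest in the E6.5 endoderm-like sums. At E3.5 its level was 33.4 ± 25.2 CPM (SD, n = 10), with a lowest value of 6.54, a median of 25.1 and a highest of 96.8 CPM, the last in embryo 6 of plate P9. The 5 E4.5 epiblast-like sums read 14.4, 58.9, 18.2, 43.9 and 11.9 CPM, and the PrE-like sums of the same embryos read 71.99, 62.98, 24.6, 53.9 and 58.3 CPM. PrE-like values were above the epiblast-like value in each of the 5 embryos, although the groups overlapped. In the 8 E5.5 epiblast-like sums Eomes ran from 3.25 to 21.8 CPM with a median of 8.46, and in the 12 E6.5 epiblast-like sums from 43.4 to 163.8 CPM with a median of 122.2. These groups did not overlap. The 7 E6.5 endoderm-like sums ran from 57.4 to 310.0 CPM with a median of 246.1, and 6 of them lay above all epiblast-like sums.

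Between the E5.5 and E6.5 epiblast, Eomes rose by 3.23 (SE 0.43, adjusted p = 7.01e-07, edgeR), and it did so within both E6.5 batches, by 3.15 on plates P1 to P3 and by 3.42 in the embryos without a plate name. In that comparison 11.3% of all tested genes were called in either direction, against 3 of the 4 T-box genes. Both E6.5 batches were set against the same E5.5 sums. Some plate names recur between stages, and the labels do not say whether these are the same plates. Stage and plate can thus not be told apart in any comparison between stages. Eomes was also higher in E6.5 endoderm-like than in E4.5 PrE-like sums, by 2.05 (SE 0.51, adjusted p = 0.00643, edgeR), where 10.8% of all genes were called and Eomes alone of the 4. This call was lost in the embryos without a plate name alone (1.55, adjusted p = 0.273) and when sums of 1 or 2 cells were kept (1.72, adjusted p = 0.0587).

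Within E6.5, Eomes was 1.07 higher in endoderm-like than in epiblast-like sums (SE 0.38, adjusted p = 0.0436, edgeR), and in this comparison 14.8% of all genes were called. The call was kept in 11 of 32 alternatives. With the embryo as a block, which pairs the classes of each embryo, the difference was 1.24 with an adjusted p of 0.0848, and it was 1.31 on plates P1 to P3 (adjusted p = 0.0593) and 0.45 in the embryos without a plate name (adjusted p = 0.856). When single embryos were left out it lay between 0.88 and 1.10 in the cases that lost the call, which were embryos 2, 5, 6, 7, 8 and 9 of the E6.5 plates, embryo 2 without a plate name, embryo 2 titled E6.75 and embryos 1, 2 and 3 of E4.5, with the highest adjusted p (0.127) without embryo 8. The fall from the E4.5 to the E5.5 epiblast was 1.36 on the same scale and missed the threshold (log2 fold change -1.36, SE 0.46, adjusted p = 0.0685, edgeR), but passed with DESeq2 (-1.45, adjusted p = 0.0207). In that comparison 5.35% of all genes were called.

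The share of cells with Eomes was lowest in the E5.5 epiblast, as was the level, and was 100% in the streak-like sum. ICM cells of E3.5 had it in 49.05% ± 14.5 (SD, n = 10 embryos). At E4.5 the share was 75.6% ± 11.8 (n = 5) in the PrE-like class and 59% ± 27.02 (n = 5) in the epiblast-like class. In the E5.5 epiblast it was 29.7% ± 10.97 (n = 8), from 14.3% to 47.1% between embryos, and at E6.5 it was 82.5% ± 16.6 (n = 12) in epiblast-like and 94.3% ± 9.76 (n = 7) in endoderm-like cells. The rise of the share between the E5.5 and E6.5 epiblast had the smallest p of the 28 differences of shares tested for the 4 genes (exact two-sided permutation test between embryos, p = 1.59e-05, adjusted p over the 28 tests 0.000445). The smallest p that can be reached depends on the number of embryos, so this order does not rank the differences. The Eomes share rose by 52.8 points, while the Tbx3 share differed by -72.0 points between the E4.5 and E5.5 epiblast. The share was also higher in E4.5 PrE-like cells than at E3.5 (exact permutation p = 0.00466, adjusted p = 0.0326), while the levels of the sums did not differ beyond their spread (0.70, SE 0.44, adjusted p = 0.281, edgeR).

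At E3.5, where Eomes can also mark trophoblast, 57 of 99 cells had a count without thinning. The 9 trophoblast markers summed to 77.4 to 1679 CPM (median 656) in cells with Eomes and to 154.8 to 1590 CPM (median 538) in cells without it. In those with Eomes, 8 of the 9 markers were detected, with Ascl2 at 0. In those without it, 6 were, with Elf5, Ascl2 and Krt7 at 0. Elf5, Wnt7b and Tex19.1 are among the 9, and the study had removed cells expressing all of these by its own rule. The part of trophoblast RNA in the Eomes level at E3.5 was not tested. Median depth was 470300 counts in cells with Eomes and 695500 in those without. All 8 E5.5 endoderm-like cells, which came from 4 embryos and entered no test, had Eomes, with 2915 counts and 337 CPM of the class's total, beside 57.4 to 310.0 CPM (scaled by edgeR) in the E6.5 endoderm-like sums.

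**Figure D2:**
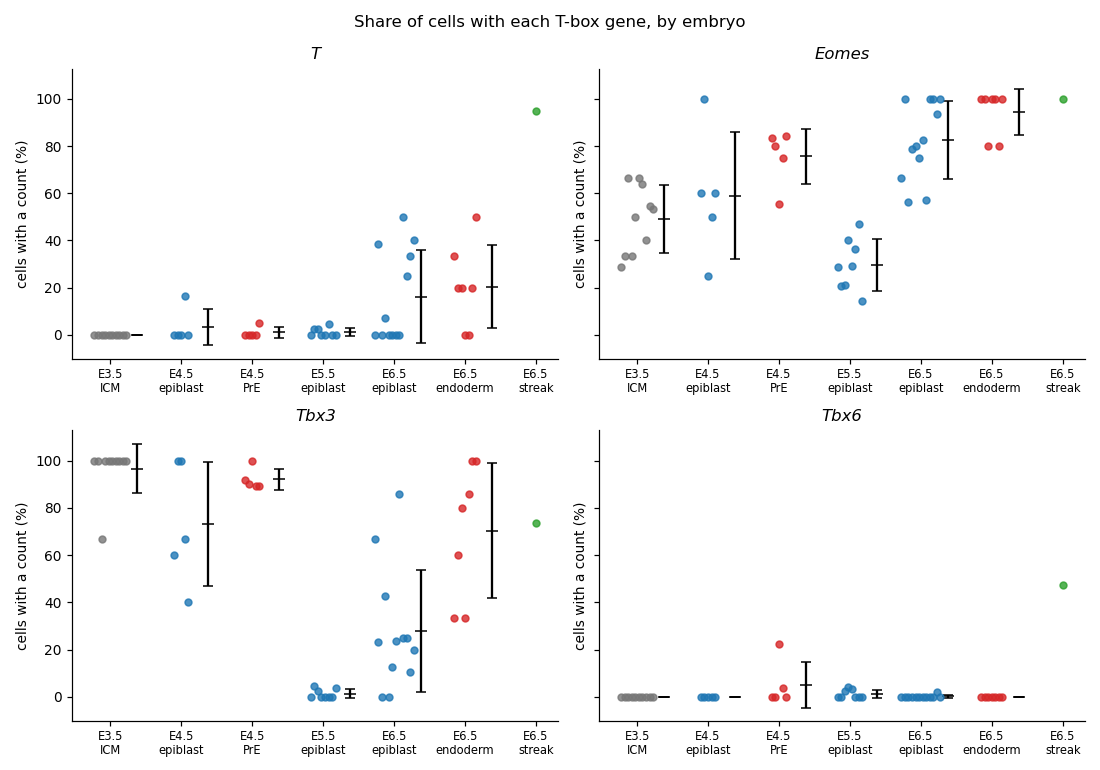
Share of cells with at least 1 count of each T-box gene after thinning to 300000 counts (percent), one point per embryo with at least 3 cells, with the mean and SD over embryos. Nearly every E3.5 cell had Tbx3 and none had T, and the Eomes shares of the E5.5 epiblast lay below those of the E6.5 epiblast in every embryo.

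Tbx3 followed another course, with a fall in the epiblast between E4.5 and E5.5 and a higher level in the endoderm-like than in the epiblast-like sums of E6.5. The 8 E5.5 endoderm-like cells held 1.16 CPM, from 10 counts in 1 cell. The 10 E3.5 sums ran from 68.5 to 281 CPM (median 173.7), and all of the 99 cells had a count without thinning. The 5 E4.5 epiblast-like sums read 7.82, 41.8, 21.5, 35.1 and 12.6 CPM, and the PrE-like sums of the same embryos read 83.1, 127.5, 89.2, 79.1 and 78.1 CPM. The 2 groups did not overlap. The 8 E5.5 epiblast-like sums held 0 to 1.25 CPM with 4 at 0, and the counts of Tbx3 came from 5 cells. The 12 E6.5 epiblast-like sums ran from 0.0466 to 74.96 CPM (median 2.98), with the highest in embryo 9 of plate P3, and the 7 E6.5 endoderm-like sums from 0.751 to 299 CPM (median 75.04).

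From the E4.5 to the E5.5 epiblast, Tbx3 fell by 5.75 on the log2 scale (SE 1.07, adjusted p = 0.00039, edgeR), and this call was kept in all 31 alternatives. It was the 1 T-box gene of the 4 called in this comparison. It then rose by 4.39 in the E6.5 epiblast (SE 0.95, adjusted p = 0.00135, edgeR), from a level close to 0, and the rise was 4.84 on plates P1 to P3 and 2.57 in the embryos without a plate name, both called. In E6.5 endoderm-like sums Tbx3 was 3.72 higher than in epiblast-like sums (SE 0.81, adjusted p = 0.00151, edgeR), and all 32 alternatives kept this call. The difference between endoderm-like and epiblast-like sums was 1.77 larger for Tbx3 at E6.5 than at E4.5, which did not pass (adjusted p = 0.592, edgeR), and for Eomes it was 0.18 larger (adjusted p = 1, edgeR). The class itself was uneven, since embryo 7 of plate P3 and embryo 2 of plate P1 read 0.751 and 6.99 CPM against at least 58.3 CPM in the other 5.

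At E4.5 Tbx3 was 1.95 higher in PrE-like than in epiblast-like sums but was not called (SE 1.10, adjusted p = 0.309, edgeR). With the embryo as a block, which compares the lineages within each embryo, it was 2.15 with an adjusted p of 0.00882 and passed. In the fit without the block, 3.72% of all genes were called between the E4.5 lineages, and of the 4 T-box genes 0 were called by edgeR, 0 had an unadjusted p below 0.05, and 0 were called by DESeq2. Against E3.5, the log2 fold change of Tbx3 in the E4.5 epiblast was -2.77 (SE 1.07, adjusted p = 0.0564, edgeR), with all 5 embryos below all 10 of E3.5. DESeq2 gave -2.77 with an adjusted p of 0.0145. Of all genes 6.60% were called as lower and 12.5% as higher here, 0 of the 4 T-box genes by edgeR and 1 by DESeq2, and 2 of the 4 had an unadjusted p below 0.05. Against E3.5 the PrE-like level differed by -0.82 (SE 0.95, adjusted p = 0.631, edgeR), in a comparison that called 13% of all genes as higher, 5.01% as lower and 0 of the 4 T-box genes by either tool, with 1 at an unadjusted p below 0.05.

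The share of cells with Tbx3 dropped from 73.3% ± 26.2 (SD, n = 5) in the E4.5 epiblast to 1.36% ± 1.95 (n = 8) at E5.5 (exact permutation p = 0.00155, adjusted p over the 28 tests 0.0145). At E6.5 it was 27.9% ± 25.7 (n = 12) in epiblast-like and 70.3% ± 28.7 (n = 7) in endoderm-like cells (exact permutation p = 0.00667, adjusted p = 0.0373), a difference of 35.4 points with an adjusted p of 0.0811 when cells were not thinned. The rise in the epiblast from E5.5 to E6.5 passed too (exact permutation p = 0.00073, adjusted p = 0.0102), although with at least 10 CPM as the rule it was 11.2 points with an adjusted p of 0.167. Cells of the E6.5 epiblast-like class with Tbx3 (44 of 180) held endoderm markers at a median sum of 2059 CPM, against 906 CPM in the cells without it, and all 25 endoderm markers were detected in both. In endoderm-like cells the median sum was 18720 CPM. The part of endoderm RNA in the epiblast-like Tbx3 level was not tested.

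T appeared at E6.5. None of the 99 E3.5 cells had a count without thinning. For counting error only, with cells taken as independent, the exact 95% interval allows up to 3.66% of cells with a count. At E4.5, 1 of 23 epiblast-like cells had 9 counts and 1 of 82 PrE-like cells had 18, and at E5.5, 4 epiblast-like cells held 30 counts. At E6.5, 44 of 180 epiblast-like cells and 23 of 25 streak-like cells had T without thinning, and 7 of 41 endoderm-like cells did as well. The 12 epiblast-like sums ran from 0 to 38.8 CPM with a median of 0.206, and 6 of them were at 0. The streak-like sum held 109.4 CPM, above each of the 12.

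The T level of the E6.5 epiblast varied widely between embryos. Embryo 3 of plate P1 held 38.8 CPM, the embryos titled E6.75 held 16.1 and 32.1 CPM, and embryo 1 without a plate name held 6.61 CPM. The remaining 8 sums held at most 0.629 CPM. By cells, 11 of 99 (11.1%) on plates P1 to P3 had T, of which 10 came from the 26 cells of embryo 3, against 3 of 8 in unplated embryos titled E6.5 and 30 of 73 (41.1%) in those titled E6.75. T was called as higher in the E6.5 than in the E5.5 epiblast (5.81, SE 1.79, adjusted p = 0.0281, edgeR), with 5 of 12 embryos above all 8 of E5.5. Without the embryos titled E6.75 the difference was 5.00 and missed the threshold (adjusted p = 0.0583). In the embryos without a plate name alone it was 6.66 (adjusted p = 0.0171). With plates P1 to P3 alone T was not tested, since too few sums held enough of its counts to pass the filter. The difference of the T share was 15.0 percentage points and did not pass (exact permutation p = 0.0603, adjusted p = 0.187).

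T in the endoderm-like cells ran from 0 to 43.4 CPM over the 7 sums, with a median of 1.43 and 2 sums at 0. The highest value, in embryo 2 of plate P1, came from 1 cell with 93 of its counts. Endoderm markers summed to a median of 31340 CPM in the 7 cells with T and 17230 CPM in the 34 without it. Epiblast markers summed to 1652 and 1779 CPM, streak markers to 482.1 and 331.6 CPM and trophoblast markers to 73.15 and 33.55 CPM. Of the 7 cells, 1 was labelled as a doublet. The part of RNA of other lineages in this T level was not tested. T did not differ between the E6.5 endoderm-like and epiblast-like sums beyond their spread (0.20, SE 1.41, adjusted p = 0.985, edgeR), and the direction turned in 6 of 30 alternatives.

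Tbx6 was the rarest of the 4, with counts in 25 of 721 cells. Of these cells, 15 were streak-like, all from embryo 2 without a plate name. A single E3.5 cell held 1 count and 3 PrE-like cells held 8, the E5.5 epiblast gave 40 counts in 4 cells, 23 of them in 1 cell, and the E6.5 epiblast-like cells gave 4 counts in 2 cells. No count was found in the 41 endoderm-like cells of E6.5. From the E5.5 to the E6.5 epiblast Tbx6 differed by -3.49 and missed the threshold (SE 1.24, adjusted p = 0.0549, edgeR). The streak-like sum held 6.71 CPM against 0 in 11 and 0.0866 CPM in 1 of the 12 epiblast-like sums. Any other sum held at most 1.21 CPM, and Tbx6 passed the filter on low counts through the streak-like sum alone. Its tests thus rest on a gene let in by the class where it was highest, and support no difference between classes.

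In the comparison of the streak-like sum with the E6.5 epiblast-like sums, no T-box gene was called by edgeR or DESeq2, and 1 of the 4, Tbx6, had an unadjusted p below 0.05. There 0.0177% of all genes were called (3 genes, against 30 with DESeq2 and 86 with at least 1 cell per sum). The streak-like class is 1 sum, which is assumed to vary like the other classes. Tbx6, with 3 counts in all epiblast-like sums, had a ratio of levels of 294 with a 95% exact interval of 98.3 to 1448 that covers counting error only (adjusted p = 0.0854, edgeR). This ratio describes 1 embryo and supports no difference between the classes. T was 3.79 higher (SE 2.20, adjusted p = 1, edgeR), Eomes 0.17 (SE 0.83) and Tbx3 0.10 (SE 1.73), and the last 2 lay inside the range of the epiblast-like sums. Without embryo 9 of plate P3 the Tbx3 difference was 1.63. The streak-like cells had a median of 9632 genes detected against 6746 in epiblast-like cells, at a median depth of 651700 and 606600 counts, and the part of this in the T-box levels was not tested.

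Per kilobase of exon, the order of the genes changed from stage to stage. At E3.5 the level of Tbx3 was 24.4 ± 9.19 CPM per kb (SD, n = 10) and that of Eomes 8.04 ± 6.06, with T at 0 and Tbx6 at 0.0138. In the E6.5 epiblast Eomes led with 25.7 ± 10.2 CPM per kb (n = 12), followed by T with 3.41 ± 5.96 and Tbx3 with 1.40 ± 3.17, and the last 2 do not differ beyond their spread. In the E6.5 endoderm-like class Eomes held 54.04 ± 20.6 CPM per kb (n = 7) and Tbx3 18.2 ± 18.3. The streak-like sum was led by T with 47.3 CPM per kb, with Eomes at 28.9, Tbx6 at 3.72 and Tbx3 at 1.49.

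**Figure D3:**
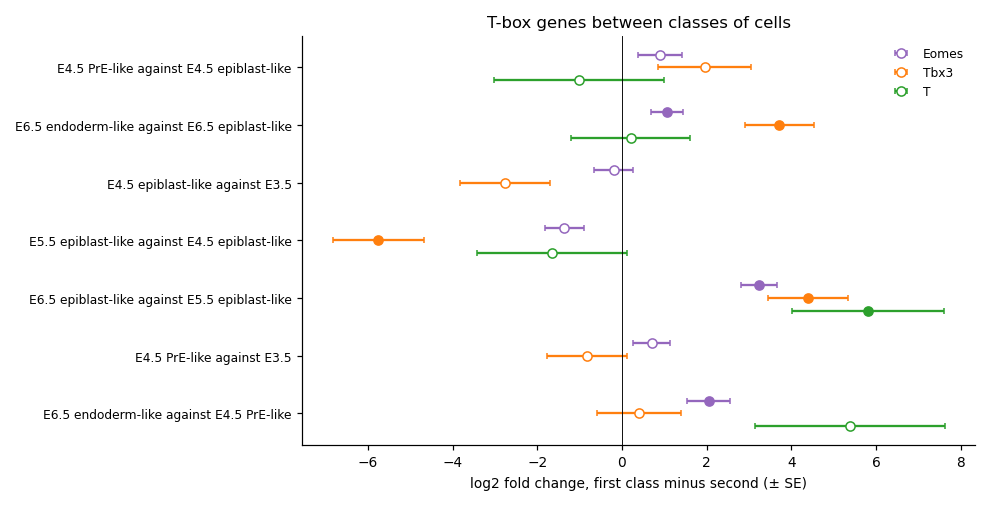
Log2 fold changes (first class minus second, ± SE) of Eomes, Tbx3 and T in the 7 comparisons of classes with more than 1 sum, where filled points are called genes and comparisons with no count in a class are left out. Tbx3 was called as lower in the E5.5 epiblast, all 3 genes were called as higher in the E6.5 than in the E5.5 epiblast, and Eomes and Tbx3 were called as higher in the E6.5 endoderm-like class.

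In single E6.5 epiblast-like and streak-like cells, all with T or Tbx6 had Eomes, which most other cells had as well. Of the 180 epiblast-like and 25 streak-like cells, all but 19 had Eomes, 67 had T, 62 had Tbx3 and 17 had Tbx6 without thinning. All 67 cells with T also had Eomes, whereas 36.02% of the cells with Eomes had T. Of the 17 cells with Tbx6, all had Eomes and 15 had T, so 52 cells had T without Tbx6. Eomes alone was the most frequent pattern with 87 cells, 37 cells had Eomes and T, 30 had Eomes and Tbx3, 15 had Eomes, T and Tbx3, 12 had all 4, 4 had Tbx3 alone and 15 had none. After thinning, 52 of 52 cells with T had Eomes and 9 of 11 with Tbx6 had T, while 82.6% of the cells without T had Eomes too.

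**Figure D4:**
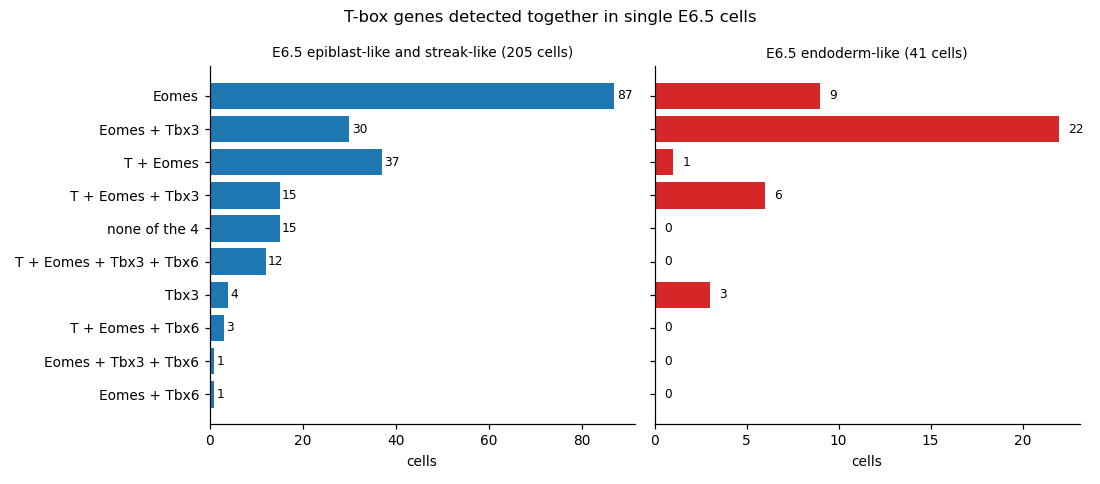
Number of E6.5 cells with each combination of T, Eomes, Tbx3 and Tbx6 (at least 1 count, no thinning), in 180 epiblast-like with 25 streak-like cells and in 41 endoderm-like cells. No bar shows T without Eomes in either group, and Tbx6 is absent from the endoderm-like cells.

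Within embryos, cells with and without T could be compared in 4 embryos that had at least 3 of each. After thinning, Eomes was found in all cells with T, and in all cells without T of 3 embryos and 90.6% in the fourth, embryo 1 titled E6.75. The mean difference was 2.34 percentage points (SD 4.69, n = 4 embryos, exact two-sided sign-flip permutation p = 1). The share of cells with Tbx6 was 47.4% with T and 0% without T in embryo 2 without a plate name, and at or below 3.13% in both kinds of cells of the other 3 (mean difference 11.1 points, SD 24.2, n = 4, exact permutation p = 1). Embryo 2 had 19 cells with T and 4 without it, and nearly all of its cells with T were streak-like, so its contrast is largely one between classes. Without embryo 2 the mean difference was -1.04 points. Tbx3 was found more often in cells with T in 3 of the 4, by a mean of 18.98 points (SD 22.95, n = 4, exact permutation p = 0.25), but by 2.88 points without thinning. With 4 embryos no p below 0.125 can be reached, so these tests could not pass.

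The level of Eomes was compared in the same 4 embryos. Its mean log2(CPM + 1) was 7.24 in cells with T against 6.72 in cells without it in embryo 3 of plate P1. It was 6.86 against 6.14 in embryo 2 without a plate name, where 4 cells had no T and nearly all others were streak-like. In the embryos titled E6.75 it was 7.21 against 5.65 and 7.79 against 6.61. Eomes was thus higher with T in 4 of 4 embryos, by a mean of 0.99 (SD 0.46, n = 4), at the smallest p that the exact sign-flip permutation test allows (0.125). This measure was chosen after the shares had been seen. Over all E6.5 epiblast-like cells, those with T had a median of 7712 genes at a median depth of 470000 counts, against 6254 genes at 702300 counts in those without it. Endoderm markers summed to a median of 1433 CPM with T and 977 CPM without it, with all 25 detected in both, and epiblast markers to 5484 and 4728 CPM. The part of these in the Eomes difference was not tested. Pooled over 13, 6 and 5 embryos, Tbx6 was found in 1.45% of the epiblast-like and streak-like cells with no T count, in none of 21 with 1 to 9 T counts and in 15 of 46 with 10 or more, at median depths of 704700, 373900 and 612900 counts. All 15 were streak-like cells of embryo 2 without a plate name, so the higher share at 10 or more T counts is that of 1 embryo.

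**Figure D5:**
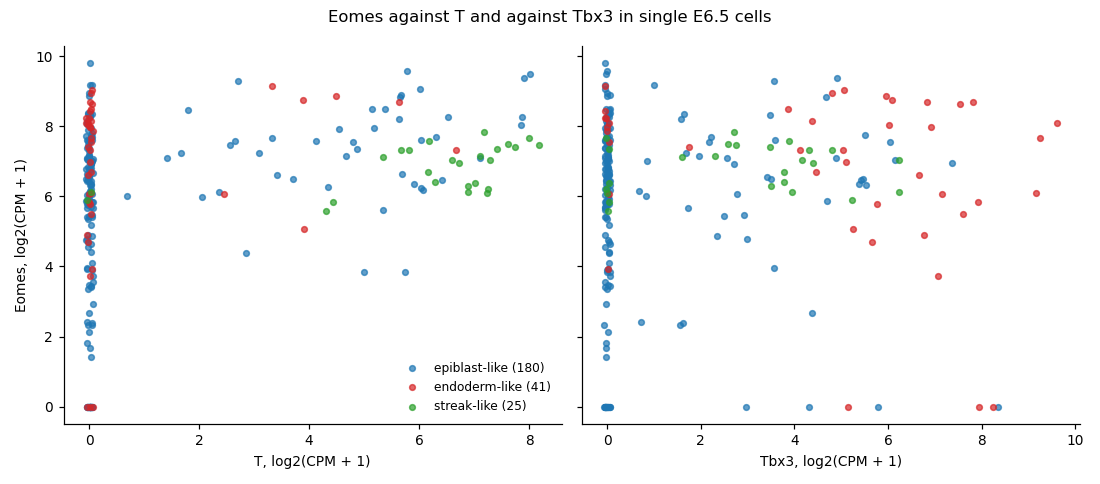
Eomes level against T (left) and Tbx3 (right) in single E6.5 cells, both axes as log2(CPM + 1), with 180 epiblast-like, 41 endoderm-like and 25 streak-like cells and a small sideways shift to part overlapping points. Every cell with T lies above 0 on the Eomes axis, while cells with Tbx3 include a few at 0.

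Among the 24 streak-like cells of the 1 embryo, the 15 cells with Tbx6 and the 9 without it had similar median T levels of 120.6 and 117.3 CPM. Their median Eomes levels were 138.8 and 72.7 CPM, and their median depths 674400 and 411200 counts. The part of depth in the detection of Tbx6 was not tested. Mesp1, a target of Eomes and a gene of the earliest cardiac mesoderm, had a count in 35 of the 67 epiblast-like and streak-like cells with T, in 6 of the cells without it and in 15 of the 17 cells with Tbx6.

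In the 41 endoderm-like cells of E6.5 both Eomes and Tbx3 were frequent. Tbx3 was found in 28 of 38 cells with Eomes and in 3 of 3 without it. Eomes and Tbx3 without T was the leading pattern with 22 cells, 9 had Eomes alone, 6 had Eomes, Tbx3 and T, 3 had Tbx3 alone and 1 had Eomes and T. Before gastrulation Eomes and Tbx3 were also found together. All 57 E3.5 cells with Eomes had Tbx3, as did the 42 without it. In PrE-like cells 64 of 66 with Eomes had Tbx3, against 12 of 16 without it, and in the E4.5 epiblast 10 of 14 against 6 of 9. The PrE-like cells had a median of 7387 genes with Eomes and 5646 without it, at median depths of 719900 and 1023000 counts. Their endoderm markers summed to medians of 19360 and 13150 CPM. The part of these in the shared detection was not tested. In the E5.5 epiblast 1 of 73 cells with Eomes had Tbx3, 3 of the 4 cells with T had Eomes, and 1 of the 4 with Tbx6 did.

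The other 12 T-box genes have rows as well, and 9 passed the filter. Mga, which encodes a partner of Max and carries a T-box, was the 1 gene of the 12 found in every sum, at 85.7 ± 41.4 CPM (SD, n = 10) at E3.5 and 134.9 ± 71.3 CPM (n = 12) in the E6.5 epiblast. Tbx20, a heart gene later in development, was high at E3.5 (64.9 ± 41.8 CPM, n = 10, lowest 29.9) and at 0.816 ± 1.28 CPM (n = 5) in PrE-like sums, a log2 fold change of -6.23 (adjusted p = 0.0226, edgeR). Tbx15 was found at E3.5 (18.9 ± 27.8 CPM, n = 10, 861 counts) and in no E4.5 epiblast-like sum (adjusted p = 0.0134, edgeR). Tbx1 was found in all 5 PrE-like sums at 4.92 ± 4.11 CPM (475 counts) and in the streak-like sum at 0.796 CPM, with no count in any other class. PrE-like sums were called as higher than E3.5 (adjusted p = 0.00313, edgeR) and than E6.5 endoderm-like sums (adjusted p = 0.0181, edgeR). Against the E4.5 epiblast they were not called (adjusted p = 0.0669, edgeR). Tbx1 passed the filter on low counts through classes where it was highest, so these tests support no difference between classes.

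Several other calls among these genes rested on few embryos or counts. Tbx2 was called in the E6.5 endoderm-like class from 19.6 CPM in 1 of 7 sums (adjusted p = 0.00586, edgeR). Tbr1, with no count at E3.5, was called in the E4.5 epiblast from 78 counts in 1 of 5 sums. In PrE-like sums, at 1.37 ± 1.69 CPM (SD, n = 5), it was found in all 5. Tbx21 was called in the E4.5 epiblast from 37 counts in 2 of 5 sums, and Tbx4 was lower in the E5.5 than in the E4.5 epiblast, with 1 count against 17. Tbx21 had no count in PrE-like sums and was called as lower there than in the E4.5 epiblast, and Tbx2 was called against E3.5 from 10 counts in 1 PrE-like sum. Tbx21, found in 5 of 8 E5.5 epiblast-like sums (452 counts), and Tbr1 were lower in the E6.5 than in the E5.5 epiblast. Tbx18 passed the filter and was called in none of the 8 comparisons.

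Of 21 other genes of the streak and mesendoderm, 7 rose and 1 fell between the E5.5 and E6.5 epiblast, where 11.3% of all genes were called, beside 3 rises among the 4 T-box genes. Their median log2 fold change was 2.27, against 0 over all tested genes and 3.81 for the 4. Cer1, a secreted Nodal and Wnt antagonist, went from no count to 21.97 ± 18.9 CPM (SD, n = 12), and Foxa2, a factor of definitive endoderm and the anterior streak, rose by 7.48 (SE 1.12, adjusted p = 1.13e-05, edgeR). Dll1, a Notch ligand, fell by 8.19 on the log2 scale (log2 fold change -8.19, adjusted p = 0.000331, edgeR), with 1058 counts at E5.5 and 1 at E6.5. In the streak-like sum 2 of the 21 were called, Dll1 and Aplnr, both higher (0.0177% of all genes called), with a median of 2.62 against -0.12 over all genes. Between E6.5 endoderm-like and epiblast-like sums 7 were higher and 1 lower (14.8% of all genes called), with Lhx1, a partner of Otx2 in the anterior VE, higher by 4.79 (SE 0.74, adjusted p = 2.9e-05, edgeR) and Mesp1 at no count in the endoderm-like sums.

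For the other comparisons of the streak list, 7 genes were higher and 0 lower in E6.5 endoderm-like than in E4.5 PrE-like sums (10.8% of all genes called), with a median of 0. In PrE-like against E4.5 epiblast-like sums 3 were higher (Fgf8, Lhx1 and Foxa2; 3.72% of all genes called), with a median of 0.83. Against E3.5, 7 were higher and 4 lower in PrE-like sums, where 13% of all genes were higher and 5.01% lower. In epiblast-like sums 4 were higher and 2 lower, near the shares of all genes (12.5% and 6.60%). Between the E4.5 and E5.5 epiblast 2 were higher and 1 lower (5.35% of all genes called).

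Tbx3 is usually counted with the naive pluripotency genes, and 9 of 12 other genes of that circuit fell with it between the E4.5 and the E5.5 epiblast (5.35% of all genes called), with a median of -5.09 against 0.23 over all genes and -5.75 for Tbx3. Esrrb fell by 6.71 (log2 fold change -6.71, SE 1.48, adjusted p = 0.00324, edgeR) and Tfcp2l1 by 6.06 (log2 fold change -6.06, SE 0.96, adjusted p = 3.22e-05, edgeR). In the E6.5 endoderm-like class, where Tbx3 was higher than in the epiblast, 5 of the 12 were higher (Nr5a2, Tfcp2l1, Zfp42, Klf5 and Stat3) and 2 lower (Prdm14 and Nanog), where 14.8% of all genes were called. From E5.5 to E6.5 in the epiblast 3 were higher and 2 lower (11.3% of all genes called). Against E3.5, 1 was higher and 8 lower in the PrE-like class (13% and 5.01% of all genes), and 0 and 4 in the E4.5 epiblast (12.5% and 6.60%). In E6.5 endoderm-like against PrE-like sums 0 were higher and 3 lower (10.8% of all genes called). Between the E4.5 lineages and between the streak-like and epiblast-like sums of E6.5, 0 of the 12 were called (3.72% and 0.0177% of all genes).

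Over the 48 sums, the gene whose log2(CPM + 1) was most like that of Eomes was Cyp26a1, which encodes an enzyme that breaks down retinoic acid (Pearson r = 0.84), followed by Lhx1 (r = 0.79) and Prss12 (r = 0.79). Tbx3 was most like Cd63 (r = 0.89), Tfcp2l1 (r = 0.85) and Glrx (r = 0.85). T was most like Mesp1 (r = 0.72), Lhx5 (r = 0.70) and Fam115a (r = 0.68), and Tbx6 most like 1700028P14Rik (r = 0.92), Myom2 (r = 0.90) and Lgr5 (r = 0.89). Between the 4 genes themselves r was 0.50 for T and Eomes, 0.37 for T and Tbx6, 0.17 for Eomes and Tbx3, and between -0.13 and -0.06 for the other pairs. The sums share embryos, plates and depth, and for Tbx6 the 1 streak-like sum carries most of the spread.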

How the data were processed

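Single cells were sequenced as paired reads of 100 bp. The submitters' notes name Trim Galore 0.4.3, HISAT2 2.0.5 and GRCm38. What the authors deposited is, for each gene in each cell, a raw count of reads made with SeqMonk and not normalized. Reads aligned with a quality below 20 had been dropped. The kit does not mark strand. No 2 of the 721 cells had identical counts, and genes on X, Y and the mitochondrion are not analysed here.

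Groups and embryos came from the labels. Clustering after SC3's steps in Python 3.11.15 (scikit-learn 1.9.0) used 8 clusters over all cells and 5 at E6.5, held out 49 genes (the 4 T-box genes and the lists reported), and took names from marker lists. The limit of 2 (log2) for the streak name was set after the clusters were seen. Labelled doublets were kept and left out in an alternative. Sums were tested with edgeR 4.0.16 (TMM, filterByExpr, quasi-likelihood) in R 4.3.3, and DESeq2 1.42.0 was an alternative. The code was tested on simulated data. Replicates are embryos, and their number limits the p-values. Intervals cover counting error only, since reads carried no molecular identifiers.

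Classes of 1 embryo share an animal by their titles, so that the embryo pairs them. Deviations of sums of the same embryo correlated at 0.0154 to 0.0943 over 5 embryos at E4.5 and at 0.0337 to 0.215 over 7 at E6.5. The fit with the embryo as a block is given where it changes a call. Thinning to 300000 counts left out 46 cells. Named are the 4 genes, the other T-box genes that were tested, up to 3 called genes of each list with the largest fold, and the 3 genes most like each of the 4. Members and lists were chosen with earlier results of these data known. Promoter sequences are RefSeq's, which matched 3 of the 4 genes.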

Additional observations from a re-analysis of the deposited data

Results flagged for a closer look

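In 14 groups of 4 to 10 embryos, 5 held a single embryo far from the rest of its group by Dixon's test. Its chance rate of about 1 group in 20 assumes normal values and does not hold for groups with sums at 0. Of the groups below, T had 2 of 7 sums at 0, and Tbx6 had 3 of 5 at E4.5 and 4 of 8 at E5.5. The number of flagged groups is therefore not read as an excess. Eomes was 96.8 CPM in embryo 6 of plate P9 at E3.5, T was 43.4 CPM in the endoderm-like cells of embryo 2 of plate P1 at E6.5, and Tbx3 was 127.5 CPM in the PrE-like cells of embryo 2 of plate P1 at E4.5. Tbx6 was 1.17 CPM in the PrE-like cells of embryo 3 of plate P2 at E4.5 and 1.21 CPM in the E5.5 epiblast-like cells of embryo 2 of plates P2 and P3, both from few counts.

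Cells outside the comparisons also held counts. The 8 E5.5 endoderm-like cells held Eomes at 337 CPM and Tbx3 at 1.16 CPM, the latter from 10 counts in 1 cell. The 4 unnamed E6.5 cells held Eomes at 21.01 CPM and Tbx3 at 4.399 CPM, of which most counts came from 1 cell each.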

How the results depend on the processing

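The calls of Eomes and Tbx3 between the E5.5 and E6.5 epiblast, of Tbx3 between the E4.5 and E5.5 epiblast and of Tbx3 in E6.5 endoderm-like against epiblast-like sums were kept in every alternative run. Of the 4 genes, the number called between the E4.5 lineages was 1 in the fit with the embryo as a replicate block, which pairs classes of 1 embryo, against 0 without it. In E6.5 endoderm-like against epiblast-like sums it was 1 (Tbx3) in place of 2 with that block, in either batch alone, with Ward clustering, with at least 1 or at least 5 cells per sum, without the filter on low counts, with single wells, with the unplated embryos merged into plate P1, without embryos titled E6.75, and between 1 and 2 when single embryos were left out. The block changed no other call. For the E4.5 epiblast against E3.5 it was 1 with DESeq2, with the compared classes alone and with merged embryos, 2 with the unplated E6.5 embryos alone, and 0 to 1 with single embryos left out. For the E5.5 against the E4.5 epiblast it was 2 with DESeq2, with RLE normalization, with Ward clustering and with single wells. For E6.5 endoderm-like against PrE-like sums it was 0 with the unplated embryos alone and with at least 1 cell per sum, 2 with single wells, and 1 to 2 with single embryos left out. The cause was not tested.

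Directions that turned belonged to differences that had not passed. With single embryos left out, T ran from -5.65 to 4.599 between the E4.5 lineages, from -1.32 to 0.83 in E6.5 endoderm-like against epiblast-like sums, from 0 to 5.67 in the E4.5 epiblast against E3.5, from -1.98 to 3.64 in the E5.5 against the E4.5 epiblast and from 0 to 4.61 in PrE-like sums against E3.5. In the same way Tbx3 ran from -0.024 to 1.63 in streak-like against epiblast-like sums, Eomes from -0.57 to 0.0096 in the E4.5 epiblast against E3.5 and Tbx6 from -0.64 to 3.23 in PrE-like sums against E3.5. With Ward clustering T was 1.27 between the E4.5 lineages and 0.24 in the E5.5 against the E4.5 epiblast. In E6.5 endoderm-like against epiblast-like sums T was -0.74 in unplated embryos, -0.27 and -3.12 with at least 1 and 5 cells, and -0.16 with merged embryos. With at least 1 cell, Eomes was -0.47 in streak-like against epiblast-like sums and Tbx3 -0.16 in E6.5 endoderm-like against PrE-like sums. Tbx3 in streak-like against epiblast-like sums was -0.13 with at least 5 cells and -0.095 with single wells. With single wells Eomes was 0.19 in the E4.5 epiblast and T 0 in PrE-like sums, both against E3.5. The share of cells with Tbx6 in the E4.5 epiblast against E3.5 was -2.5 points unthinned. Between cells with and without T, the Eomes difference ran from 0 to 3.13 points and the Tbx6 difference from -1.04 to 15.8 points with 1 embryo left out, and Tbx6 was -1.08 with single wells. The cause was not tested. The settings by batch and the test of the Eomes level were chosen after seeing the data. A single streak-like sum, and few counts of T and Tbx6 before E6.5, limit what could be detected.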
